A study of Mus musculus with 18 samples.

Results

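The miRNAs described here are the members of the miR-10 and miR-196 families, whose genes lie inside the Hox gene clusters. They were taken by name as the rows of miR-10a, miR-10b, miR-196a and miR-196b, both arms and all gene copies, in a table of mature miRNA counts. No cutoff on a measured value was used, but the families were chosen with earlier results of these data known. There were 9 such rows of 1978 mature miRNAs. They come from 5 hairpins in 4 Hox clusters: miR-10a and miR-196a-1 in HoxB, miR-10b in HoxD, miR-196a-2 in HoxC and miR-196b in HoxA.

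The libraries were made from mouse B16 melanoma cells, a pigmented skin tumour line, in a study that asked which RNAs change when these cells are induced to differentiate. Control cells, cells treated with ATRA and cells treated with PB-4 each gave 3 miRNA libraries and 3 total RNA libraries, 18 in all. ATRA (all-trans retinoic acid) activates the retinoic acid receptors, while PB-4 (sodium 4-phenylbutanoate) is an inhibitor of histone deacetylases that can also help proteins to fold. The sample labels name B16 as the cell line but mouse skin as the source, and they give no other genotype, while the sources used here do not state the dose and time of treatment of the sequenced cells. The methods say that the experiment was repeated, but not whether the sequenced replicates are separate cultures, so a p-value here covers only how much these libraries vary.

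A miRNA is cut from a hairpin with a 5p and a 3p arm, and usually the product of 1 arm is kept as the guide that represses mRNAs by pairing through its seed, bases 2 to 8. Hox genes encode the homeodomain transcription factors that set position along the body axis, and retinoic acid is a classic inducer of the genes at the 3′ side of each cluster. The miR-10 and miR-196 genes were inherited together with the clusters, and both families are known to repress Hox mRNAs among other targets.

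All 9 rows were matched by name to mature sequences of RefSeq (GRCm38.p6). They are printed from 5′ to 3′ with the seed in capitals, because the seed groups them into families and shows which arms could share targets.
miR-10a-5p (HoxB): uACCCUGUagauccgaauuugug
miR-10b-5p (HoxD): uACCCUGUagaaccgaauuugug
miR-196a-5p (HoxB and HoxC): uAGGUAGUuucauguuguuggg
miR-196b-5p (HoxA): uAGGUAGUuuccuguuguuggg
miR-10a-3p (HoxB): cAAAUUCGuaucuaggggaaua
miR-10b-3p (HoxD): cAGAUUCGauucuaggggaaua
miR-196a-1-3p (HoxB): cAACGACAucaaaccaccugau
miR-196a-2-3p (HoxC): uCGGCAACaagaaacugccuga
miR-196b-3p (HoxA): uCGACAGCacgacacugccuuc

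The 5p arms fell into 2 seed groups, ACCCUGU for miR-10 and AGGUAGU for miR-196, and no other mature mouse miRNA of the reference carried either seed. Each of the 5 3p arms had a seed of its own. Counted from the 5′ end, miR-10a-5p and miR-10b-5p differ by 1 base, U12A, and miR-196a-5p and miR-196b-5p by 1 base, A12C. The 3p arms of miR-10a and miR-10b differ by 3 bases, A3G, U9A and A10U, of which the first lies in the seed. The mature miR-196a-5p is the same from both of its hairpins, so its counts could not be assigned to HoxB or HoxC. How many mismatches the authors' alignment allowed is not stated, and reads of the 1-base pairs could have been counted for either partner.

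The hairpins are placed in GRCm38.p6 as follows. Mir10a lies at chr11:96317165-96317274 on the plus strand, within the annotated span of Hoxb3, 993 bases from Hoxb4 and 11044 bases from Hoxb5. Mir196a-1, also in HoxB, lies at chr11:96265164-96265265 on the plus strand, within the lncRNA Gm51876, between Hoxb13 and Hoxb9, which is 6065 bases away. Mir196a-2 lies at chr15:102973350-102973434 on the plus strand between Hoxc10 (1452 bases) and Hoxc9 (3598 bases). Mir10b lies at chr2:74726070-74726137 on the plus strand, within the annotated spans of both Hoxd4 and Hoxd3, and Hoxd8 is 18137 bases away. Mir196b lies at chr6:52230081-52230165 on the minus strand, within the lncRNA Gm52902, between Hoxa9 (2711 bases) and Hoxa10 (1032 bases).

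The miRNA libraries held 3838621 to 6856229 counts and the total RNA libraries 12632669 to 36176443. The level of a row is its CPM, the count relative to the library's size after TMM scaling, and library values are listed in the order of replicates 1, 2 and 3. Changes are log2 fold changes ± standard error from edgeR's quasi-likelihood test on 6 libraries at a time, with p adjusted by Benjamini-Hochberg over all miRNAs or genes tested, and a member is said to have risen or fallen only where this adjusted p is under 0.05. ATRA and PB-4 were compared with the same control libraries, so the comparisons are not independent. In total RNA, replicate 3 of each group stood apart from replicates 1 and 2. The chi-square per degree of freedom was 14.0 to 32.6 between replicates 1 and 2 of a group and 113 to 168 between either of them and replicate 3. Therefore total RNA results are also given with the replicate number as a block where the call differed. Dhrs3, a direct retinoic acid receptor target, rose with ATRA by 6.87 ± 0.39 (edgeR adjusted p = 9.37e-04), a call made under 15 of 15 alternatives. It also rose by 1.68 ± 0.43 with PB-4 (edgeR adjusted p = 0.0330), a call lost without control or PB-4 replicate 1 or 2 (up to 0.09998). Of 6 retinoic acid response genes, 2 of 5 tested rose with ATRA and 3 of 6 with PB-4. Of all genes tested, 1.07% were called with ATRA and 11.6% were called higher with PB-4. Of the 6, 1 was higher and 3 were lower with PB-4 than with ATRA, against 10.3% and 1.94% of all genes. Stra6, called higher in both PB-4 comparisons, held 4, 3 and 164 counts over the control, ATRA and PB-4 libraries. It passed the minimum of 10 summed counts only through PB-4.

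The HoxD hairpin gave most of the counts. In the control group miR-10b-5p stood at 12028, 11722 and 16022 CPM, and it ranked between 17 and 20 among all miRNAs by mean CPM in each of the 3 groups. The arms of Mir10b made up 86.0 to 90.4% of the counts of the 9 rows in every library, and those of Mir196b, in HoxA, made up at most 13.6%. The rows that can come only from HoxB added 0.196 to 0.515%, miR-196a-5p 0.143 to 0.236%, and miR-196a-2-3p, the only row of HoxC alone, at most 0.0198%.

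In the control group the order of mean levels was miR-10b-5p (13257 CPM), miR-196b-5p (1545 CPM), miR-10b-3p (217 CPM), miR-10a-5p (34.2 CPM), miR-196a-5p (23.6 CPM), miR-196b-3p (7.20 CPM), miR-10a-3p (1.94 CPM), miR-196a-2-3p (0.717 CPM) and miR-196a-1-3p (0.201 CPM). The libraries of neighbours in this order overlapped for miR-10a-5p and miR-196a-5p and for miR-10a-3p and miR-196a-2-3p, and did not overlap for the other neighbours. With ATRA, miR-196a-5p and miR-10a-5p overlapped in the same way, at 38.7 and 38.2 CPM. With PB-4 miR-10a-3p, at 22.4 CPM, stood above miR-196b-3p, at 5.25 CPM, and overlapped miR-196a-5p, at 24.0 CPM, while the other 8 rows kept the order of the control group.

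**Figure D1:**
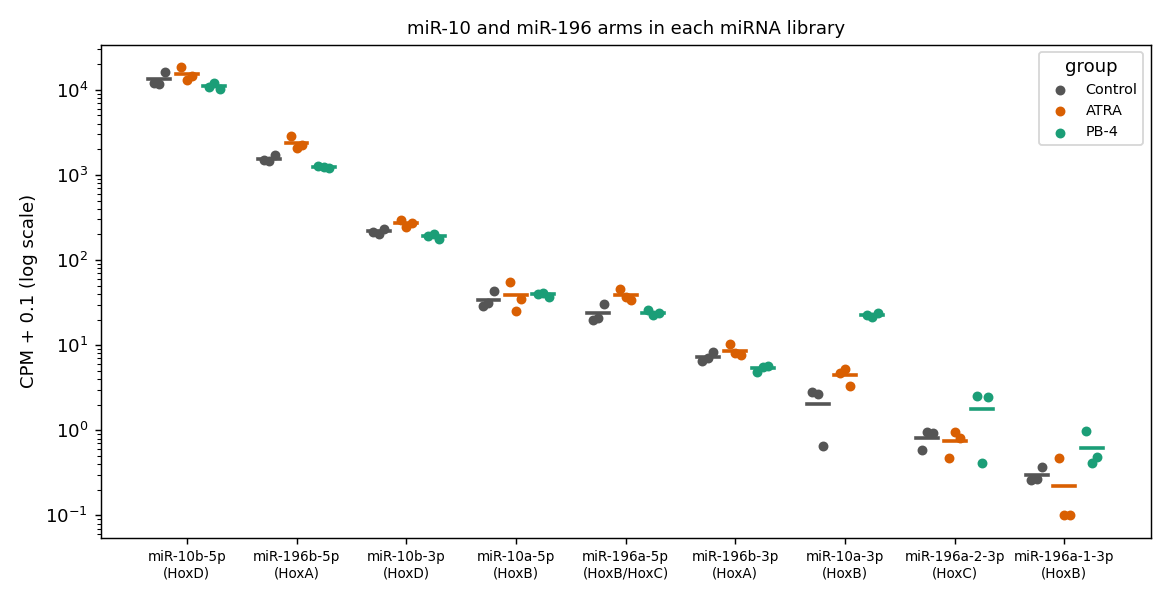
Level of each arm in each of the 9 miRNA libraries, as CPM + 0.1 on a log scale. Points are libraries, short lines are group means, and the Hox cluster of the hairpin is in brackets; the 3 PB-4 libraries of miR-10a-3p sit between 21.4 and 23.7 CPM, above all other libraries of that arm, while miR-10b-5p stays at 10344 CPM or above in all 9.

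The largest change among the members that passed was in HoxB. The 3p arm of miR-10a, usually regarded as the passenger of miR-10a-5p, stood at 2.72, 2.56 and 0.545 CPM in the control group (17, 15 and 2 counts). It stood at 4.61, 5.17 and 3.21 CPM with ATRA and at 22.2, 21.4 and 23.7 CPM with PB-4 (127, 139 and 122 counts). The 3 groups did not overlap, with PB-4 highest and control lowest. With PB-4 the arm rose by 3.58 ± 0.45 over control, or 12.0-fold (edgeR adjusted p = 5.66e-04), and it was 2.43 ± 0.26 higher than with ATRA, or 5.38-fold (edgeR adjusted p = 1.86e-04). Both calls held under 14 of 14 alternatives, with adjusted p up to 0.00622 and 0.00349. ATRA against control gave 1.08 ± 0.52, which did not pass (edgeR adjusted p = 0.420). Control replicate 3 held only 2 counts of this arm, and without it the difference of PB-4 from control was 3.21.

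The 5p arm of the same hairpin passed in no comparison. miR-10a-5p stood at 28.5, 30.9 and 43.1 CPM in the control group, at 54.7, 25.0 and 34.9 CPM with ATRA and at 40.0, 41.2 and 36.8 CPM with PB-4. All 3 groups overlapped, and the 3 PB-4 libraries lay within the range of the ATRA libraries. PB-4 against control gave 0.32 ± 0.19 (edgeR adjusted p = 0.330), although without control replicate 3, the highest of its group, the difference was 0.54 and passed (edgeR adjusted p = 0.0271). ATRA against control gave 0.13 ± 0.29 (edgeR adjusted p = 0.921), and this value changed sign when only library totals were used for scaling (-0.028), without ATRA replicate 1 (-0.21) and without control replicate 2 (-3.1e-04).

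The ratio of the arms compares them within a library and does not depend on scaling. Counts of miR-10a-3p were 9.55, 8.29 and 1.27% of those of miR-10a-5p in the control group, 8.42, 20.7 and 9.18% with ATRA, and 55.5, 51.9 and 64.6% with PB-4. Every PB-4 library was above every other library. The mean log2 ratio was 3.49 higher with PB-4 than in control and 2.26 higher than with ATRA, each with p = 0.10 in a two-sided exact permutation test, the smallest that 3 against 3 libraries can give (0.214 after adjustment over 15 tests of ratios). The range over leaving out each library was 2.64 to 3.96 for PB-4 against control, and the lowest value was without control replicate 3.

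The arm ratios of miR-10b and miR-196b varied less between groups. Counts of miR-10b-3p were 1.78, 1.74 and 1.45% of those of miR-10b-5p in control, 1.60, 1.86 and 1.87% with ATRA and 1.75, 1.67 and 1.69% with PB-4, and the groups overlapped. For miR-196b the 3p arm was 0.433, 0.485 and 0.478% of the 5p arm in control, 0.354, 0.383 and 0.335% with ATRA and 0.370, 0.439 and 0.466% with PB-4. Here the ATRA libraries lay below the control libraries, by 0.38 on the log2 scale (two-sided exact permutation p = 0.10, adjusted p = 0.214). In control replicate 3 the arm ratio of miR-10a was below that of miR-10b, and in the other 8 libraries it was above.

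**Figure D2:**
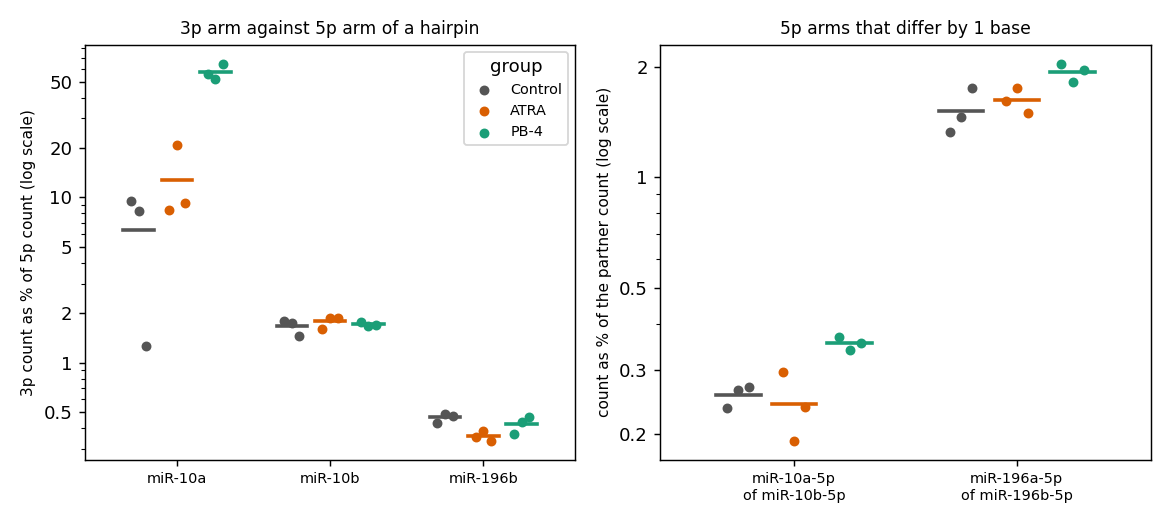
Count ratios within each miRNA library, in percent on log scales, with points for libraries and short lines for group means. On the left, the 3p arm of miR-10a is 51.9 to 64.6% of its 5p arm with PB-4 and at most 20.7% elsewhere, while the ratios of miR-10b and miR-196b range from 1.45 to 1.87% and from 0.335 to 0.485%; on the right, the minor partner of each pair of 5p arms that differ by 1 base takes its highest share with PB-4.

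The pairs of 5p arms that differ by 1 base were compared in the same way. Counts of miR-10a-5p were 0.237, 0.264 and 0.269% of those of miR-10b-5p in control, 0.296, 0.192 and 0.238% with ATRA and 0.368, 0.339 and 0.356% with PB-4. The PB-4 libraries lay above all others, with a mean log2 ratio 0.47 above control and 0.57 above ATRA (two-sided exact permutation p = 0.10 for each, adjusted p = 0.214). Counts of miR-196a-5p were 1.33, 1.46 and 1.75% of those of miR-196b-5p in control, 1.61, 1.75 and 1.50% with ATRA and 2.04, 1.82 and 1.96% with PB-4. Again the PB-4 libraries were highest, and the log2 ratio of miR-196b-5p to miR-196a-5p was 0.37 lower than in control and 0.26 lower than with ATRA (two-sided exact permutation p = 0.10, adjusted p = 0.214). With partners this unequal, a small share of misassigned reads of the larger partner would enter the smaller count, and its part in these ratios was not tested.

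Next, the abundant members were compared between groups. miR-196b-5p, the HoxA guide arm, stood at 1479, 1443 and 1712 CPM in control, at 2861, 2082 and 2233 CPM with ATRA and at 1277, 1225 and 1211 CPM with PB-4. The groups did not overlap, with ATRA highest and PB-4 lowest. miR-196b-5p was 0.88 ± 0.11 lower with PB-4 than with ATRA, a 1.84-fold difference (edgeR adjusted p = 3.29e-04), and this call held under 14 of 14 alternatives (highest adjusted p 0.0153). ATRA against control gave 0.60 ± 0.16, or 1.51-fold, which did not pass (edgeR adjusted p = 0.0758) but passed under 7 of 14 alternatives, with adjusted p from 1.96e-04 to 0.205 and 0.0182 without control replicate 3. PB-4 against control gave -0.21 ± 0.11 (edgeR adjusted p = 0.249) and passed under 2 of 14 alternatives, with DESeq2 (-0.33) and with a stricter filter on low counts (-0.30). The 3p arm miR-196b-3p was near 7 CPM: it ranged from 6.40 to 8.18 CPM in control, from 7.49 to 10.1 CPM with ATRA and from 4.72 to 5.64 CPM with PB-4, and no comparison passed.

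miR-10b-5p, the HoxD guide arm, stood at 18518, 13003 and 14705 CPM with ATRA and at 10871, 12151 and 10344 CPM with PB-4, against the control values given above. The control libraries overlapped both treated groups, and the ATRA and PB-4 libraries did not overlap. PB-4 was 0.40 ± 0.11 lower than ATRA (edgeR adjusted p = 0.0367), while ATRA against control gave 0.18 ± 0.18 and PB-4 against control -0.15 ± 0.13 (edgeR adjusted p = 0.770 and 0.514). Its 3p arm showed the same order: miR-10b-3p stood at 215, 204 and 233 CPM in control, at 296, 242 and 275 CPM with ATRA and at 190, 203 and 175 CPM with PB-4. The arm was 0.45 ± 0.10 lower with PB-4 than with ATRA (edgeR adjusted p = 0.0159), and neither comparison with control passed (0.29 ± 0.15 with ATRA and -0.09 ± 0.11 with PB-4).

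miR-196a-5p, which HoxB and HoxC hairpins both yield, stood at 19.7, 21.0 and 30.0 CPM in control, at 46.1, 36.4 and 33.5 CPM with ATRA and at 26.1, 22.3 and 23.7 CPM with PB-4. The ATRA libraries lay above the libraries of both other groups, which overlapped. miR-196a-5p was 0.62 ± 0.17 lower with PB-4 than with ATRA (edgeR adjusted p = 0.0416). ATRA against control gave 0.68 ± 0.24 (edgeR adjusted p = 0.208) and passed without control replicate 3 (0.93, edgeR adjusted p = 0.0394) and with no filter on low counts. PB-4 against control gave 0.14 ± 0.21 (edgeR adjusted p = 0.729).

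These smaller differences between PB-4 and ATRA depended on the libraries and on scaling. The call for miR-10b-5p was lost without ATRA replicate 1 or 3 or PB-4 replicate 1 or 3 (adjusted p 0.102, 0.0666, 0.263 and 0.186), that for miR-10b-3p without PB-4 replicate 1 or 3 (0.130 and 0.0997), and that for miR-196a-5p without any 1 library other than ATRA replicate 3 (0.0803 to 0.158). With library totals only, the differences were -0.17, -0.23 and -0.38 and none of the 3 passed (edgeR adjusted p = 0.141, 0.125 and 0.249). Over all miRNAs tested, the median difference of PB-4 from ATRA was 0.16 with TMM factors, 0.37 with library totals and 0.07 with RLE factors. Relative to that median, miR-196b-5p lay at -1.04, -1.02 and -1.05, miR-196a-5p at -0.78, -0.76 and -0.79, miR-10b-5p at -0.56, -0.54 and -0.57 and miR-10b-3p at -0.61, -0.60 and -0.62 under the 3 scalings.

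**Figure D3:**
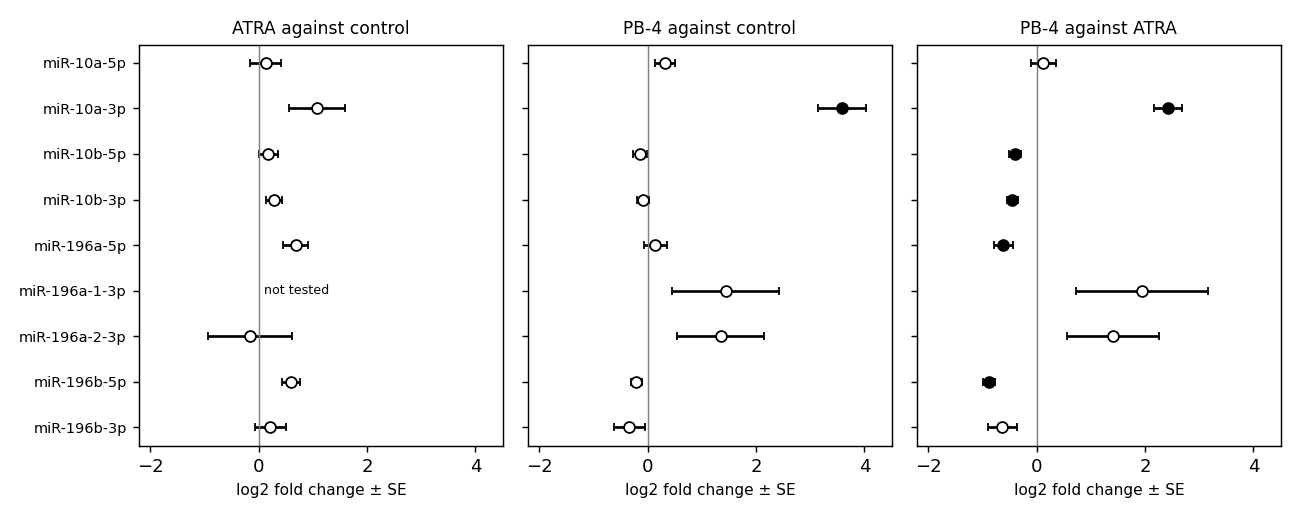
Log2 fold change ± standard error of each member in the 3 comparisons, from edgeR; filled points passed an adjusted p of 0.05 and open points did not. miR-10a-3p is the only filled point in PB-4 against control (3.58), and it stands against 4 filled points below 0 in PB-4 against ATRA.

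The 3p arms of miR-196a had few counts. miR-196a-1-3p, from HoxB, had 1, 1 and 1 counts in control, 2, 0 and 0 with ATRA and 5, 2 and 2 with PB-4, where a count of 0 allows up to 3 counts. It was too low to be tested between ATRA and control. miR-196a-2-3p, from HoxC, had 3, 5 and 3 counts in control, 2, 4 and 4 with ATRA and 14, 2 and 12 with PB-4. PB-4 replicate 2 held as few as the control libraries, and no comparison of either arm passed (adjusted p 0.336 or above).

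Over the members, 0 of 8 tested passed in ATRA against control, where edgeR called 3.38% of all 1213 miRNAs tested; 2 members had an unadjusted p under 0.05, and DESeq2 called 1 member and 5.94% of all miRNAs. In PB-4 against control 1 of 9 rose and 0 fell, against 11.9% of 1291 miRNAs called higher and 4.65% called lower (16.5% in all). In PB-4 against ATRA 1 of 9 rose and 4 fell, against 9.45% of 1249 miRNAs called higher and 5.2% called lower (14.7% in all). The libraries of the groups did not overlap for 4, 5 and 6 of the 9 members, and for 19.4, 30.8 and 27% of all miRNAs tested. In PB-4 against control the 5 include miR-196a-1-3p, at 1 count in each control library. They also include miR-10b-3p, whose lowest control library stood at 203.8 CPM and highest PB-4 library at 203.1 CPM. miR-196a-1-3p passed the count minimum only through PB-4, and several members are arms of the same hairpin. These counts therefore cannot be read as an excess over those shares. The median change was 0.25, 0.14 and -0.40 over the members tested and -0.03, 0.16 and 0.16 over all miRNAs. The count of members called was 2 without control replicate 3 in both comparisons with control, and in PB-4 against ATRA it was 3 without ATRA replicate 1 and 2 without PB-4 replicate 1 or 3. Each of the 9 members passed a minimum of 10 summed counts in both comparisons with PB-4, miR-196a-1-3p only through its PB-4 libraries.

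Markers of other cell types were also higher in the PB-4 libraries. Summed, 5 fibroblast mRNAs stood at 8.11 to 16.5 CPM in control, 3.23 to 10.7 CPM with ATRA and 340 to 1292 CPM with PB-4. Of the 5, 1 (Lum) was at 0 in the control libraries and 2 (Dcn and Lum) in the ATRA libraries, while the rest were detected in each group. With PB-4 against control 3 of the 5 rose, where 11.6% of all genes and 11.9% of all miRNAs tested were called higher. Only 3 of the 5 were tested in ATRA against control. The others reached the count minimum only through their PB-4 libraries, so the count risen cannot be read against that share. The endothelial miR-126a arms summed to 1777 to 2046 CPM in control, 1434 to 2128 CPM with ATRA and 4084 to 4598 CPM with PB-4, and 2 of 2 rose, while the endothelial mRNAs Pecam1, Cdh5 and Tek stayed at 1.19 CPM or less in sum. The 14 arms of epithelial miRNAs summed to 39.2 to 42.5, 55.4 to 66.2 and 163 to 183 CPM. Of these, 3 of 11 tested rose with PB-4 against control, and 2 of 10 with ATRA, where 3.38% of all miRNAs were called. The arms of miR-143, miR-145a, miR-199a and miR-214 summed to 1143 to 1204, 1110 to 1249 and 1331 to 1527 CPM, with 5 of 8 risen with PB-4. The keratinocyte mRNAs summed to at most 0.138 CPM in control and with ATRA and to 0.790 to 4.18 CPM with PB-4. The 1 of them tested rose with PB-4. In ATRA against control 0 of the 5 were tested, so this mRNA reached the count minimum only through its PB-4 libraries. The immune mRNAs summed to 9.21 to 14.7 CPM in control, 2.45 to 6.21 CPM with ATRA and 13.8 to 18.2 CPM with PB-4. With PB-4 2 of 2 tested were higher than with ATRA, where 10.3% of all genes were called higher, and 0 of 2 higher than in control. Only 1 immune mRNA was tested in ATRA against control, so at least 1 of the 2 reached the count minimum only through PB-4. The immune miRNAs ranged from 1.64 to 7.49 CPM in sum over the 9 libraries. Melanocyte mRNAs such as Pmel and Dct are the defining markers of the line. They summed to 12339 to 14535 CPM in control, 7821 to 10081 CPM with ATRA and 6599 to 8632 CPM with PB-4. Of 7 tested, 0 fell with ATRA and 3 with PB-4, against 4.61% of all genes called lower with PB-4. The melanocyte miR-204 and miR-211 arms summed to 131 to 216, 215 to 388 and 104 to 110 CPM. Of 3 arms tested, 2 fell with PB-4 and 0 were called with ATRA, against 4.65% of all miRNAs called lower with PB-4. The part of these cell type markers in the miR-10a-3p difference was not tested, and fewer cells of a type and less RNA per cell cannot be told apart in bulk libraries.

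The miRNAs with the most similar profile were sought for the 3 members above 50 CPM, as the root mean square difference of centred log2(CPM + 1) over the 9 libraries among 253 other miRNAs above 50 CPM. For miR-10b-5p they were miR-29b-3p (0.0841), miR-423-5p (0.105) and let-7c-2-3p (0.111), where the median of all candidates was 0.326. For miR-10b-3p they were let-7c-2-3p (0.0700), miR-361-5p (0.0794) and miR-26b-5p (0.0862), against a median of 0.323. miR-196b-5p had no profile as close: miR-31-3p (0.142), let-7a-5p (0.150) and miR-30c-5p (0.167) came nearest, against a median of 0.447. Their mean levels had the same order of groups, for example 18893 CPM in control, 26145 CPM with ATRA and 15107 CPM with PB-4 for let-7a-5p.

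The Hox genes next to each hairpin were then read from the total RNA libraries, whose rows for the 5 miRNA genes themselves held 0 or 1 count per library. In HoxB, Hoxb4 had at most 4 counts in a library and was not tested. Hoxb5 stood at 0, 0.0317 and 0.0638 CPM in control, 0.392, 0.0276 and 0.170 CPM with ATRA and 0.763, 1.04 and 1.32 CPM with PB-4. Every PB-4 library was above all others, and Hoxb5 rose by 4.98 ± 0.90 over control (edgeR adjusted p = 0.00818), from 0, 1 and 1 counts to 19, 40 and 20. The call held under 15 of 15 alternatives. With 2 counts summed over the control libraries and 79 with PB-4, Hoxb5 passed the minimum of 10 summed counts there only through PB-4. PB-4 against ATRA gave 2.39 ± 0.82 (edgeR adjusted p = 0.0958, and 0.0171 with the replicate block). Hoxb3, whose annotated span holds Mir10a, had 0, 0 and 2 counts in control, 0, 1 and 1 with ATRA and 16, 19 and 7 with PB-4. It was 4.07 ± 1.02 higher with PB-4 than with ATRA (edgeR adjusted p = 0.0325), a call lost without any 1 library other than ATRA replicate 3 (0.0510 to 0.112). Against control Hoxb3 gave 3.90 ± 1.21 (edgeR adjusted p = 0.0623, 0.0129 with the replicate block, and 0.0194 without control replicate 3, which holds both counts of its group). Summed over libraries, Hoxb3 held 2 counts in control, 2 with ATRA and 42 with PB-4. It therefore passed the minimum of 10 summed counts in both comparisons only through PB-4.

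On the other side of the HoxB cluster, Hoxb13 and Hoxb9 flank Mir196a-1. Hoxb13 stood at 0.716, 0.222 and 0.957 CPM in control, 0.980, 0.553 and 1.11 CPM with ATRA and 2.33, 4.69 and 8.43 CPM with PB-4. The PB-4 libraries were above all others, and Hoxb13 was 3.07 ± 0.70 higher than in control and 2.61 ± 0.58 higher than with ATRA (edgeR adjusted p = 0.0212 and 0.0198). The first call was lost without PB-4 replicate 2 or 3 or control replicate 1 or 2 (0.0502 to 0.0713) and the second without ATRA replicate 1 or 2 or PB-4 replicate 2 (0.0612 to 0.0753). Hoxb9 stood at 2.64, 2.03 and 4.21 CPM in control, 14.7, 12.4 and 3.57 CPM with ATRA and 4.66, 4.87 and 9.55 CPM with PB-4. ATRA replicate 3 lay with the control libraries, and ATRA against control gave 1.79 ± 0.55 (edgeR adjusted p = 0.175, and 0.0300 without that library). PB-4 against control gave 1.11 ± 0.47 (edgeR adjusted p = 0.141, and 0.00582 with the replicate block).

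At the other clusters the neighbours were at or near 0 counts or did not pass in the reported edgeR fits of 6 libraries without the block. Hoxc9 and Hoxd8 had 0 counts in all 9 libraries, which allows up to 3 counts in each, and Hoxc10 had at most 2. Hoxd4, which spans Mir10b, stood at 8.81, 9.12 and 8.23 CPM in control, 10.4, 10.8 and 9.70 CPM with ATRA and 9.07, 10.1 and 7.90 CPM with PB-4, and its changes of 0.23 ± 0.24, 0.03 ± 0.28 and -0.17 ± 0.28 did not pass. Hoxd3, which spans Mir10b as well, stood at 4.48, 4.40 and 1.85 CPM in control, 5.42, 4.95 and 4.09 CPM with ATRA and 3.33, 4.61 and 3.29 CPM with PB-4. The groups overlapped, and its changes of 0.42 ± 0.41, 0.04 ± 0.45 and -0.35 ± 0.36 did not pass. Hoxa10, beside Mir196b, stood at 33.1, 38.7 and 39.3 CPM in control, 46.2, 47.6 and 45.9 CPM with ATRA and 28.1, 28.2 and 32.9 CPM with PB-4. As for miR-196b-5p, the groups did not overlap and the order was ATRA, control, PB-4. Hoxa10 passed in no comparison in the reported edgeR fit of 6 libraries without the block. PB-4 against control gave -0.32 ± 0.21 (edgeR adjusted p = 0.331) and passed under 1 of 15 alternatives (adjusted p 0.0285). PB-4 against ATRA gave -0.62 ± 0.21 (edgeR adjusted p = 0.0936) and passed under 6 of 15 alternatives, among them the replicate block (0.00882) and leaving out PB-4 replicate 3 (0.0342). ATRA against control gave 0.32 ± 0.17 (edgeR adjusted p = 0.423) and passed only with replicates 1 and 2 alone (0.0166). Hoxa9, the other neighbour, ranged from 2.68 to 3.36 CPM in control, 4.06 to 4.54 CPM with ATRA and 3.47 to 4.41 CPM with PB-4, and no comparison passed with or without the block.

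**Figure D4:**
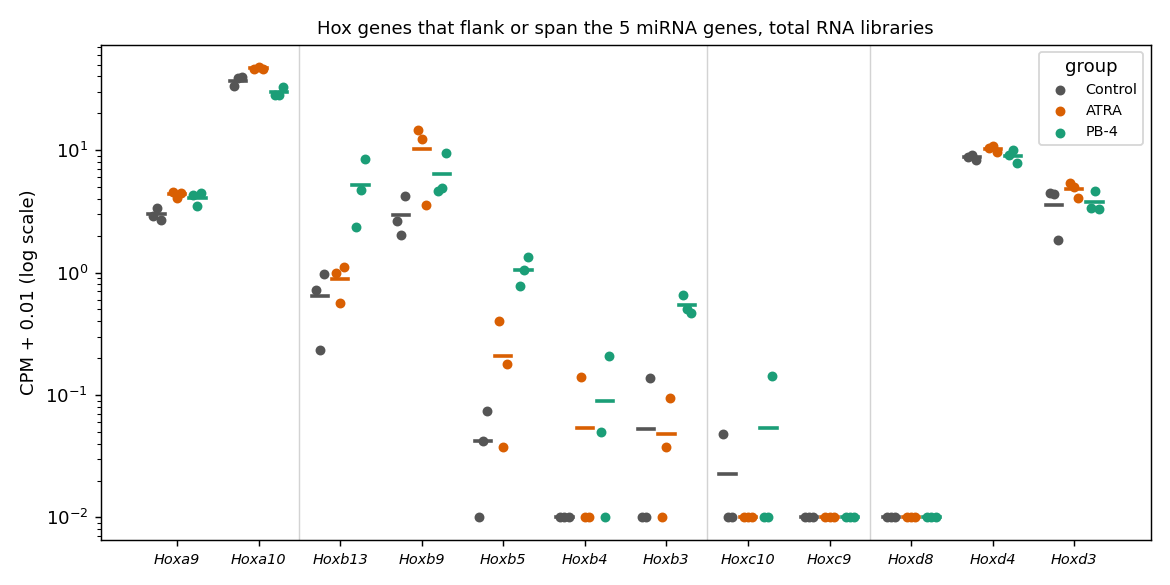
Level of the Hox genes that flank or span the 5 miRNA genes in each of the 9 total RNA libraries, as CPM + 0.01 on a log scale, with points for libraries, short lines for group means and grey lines between the HoxA, HoxB, HoxC and HoxD clusters. Hoxb3, Hoxb5 and Hoxb13 are highest in the 3 PB-4 libraries, Hoxa10 lies between 28.1 and 47.6 CPM throughout, and Hoxc9 and Hoxd8 are at 0 in every library.

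Over the 39 Hox genes, 12 had 0 counts in every library and 20 to 22 could be tested. In ATRA against control 0 of 20 passed, against 1.07% of all 17911 genes; DESeq2 called 1 and 6.98% of all genes, the fit to replicates 1 and 2 alone called 5 (Hoxa2, Hoxa7, Hoxa10, Hoxb8 and Hoxb9, all higher) and 37% of all genes, and 1 passed without ATRA replicate 3. In PB-4 against control 5 of 22 rose (Hoxb5, Hoxb13, Hoxc4, Hoxc5 and Hoxc6) and Hoxa11 fell, against 11.6% of 19450 genes called higher and 4.61% called lower (16.2% in all), and the replicate block called 8 higher and 4 lower, against 23.1% and 21.3% of all genes (44.4% in all). Of the 5 genes that rose without the block, Hoxb5, Hoxc4 and Hoxc5 held 2, 3 and 1 counts over the control libraries. With PB-4 they held 79, 43 and 68. Hoxb3, called higher by the block, held 2 in control and 42 with PB-4. These genes passed the count minimum only through the PB-4 libraries, so neither count of risen genes can be read against the share over all genes. In PB-4 against ATRA 4 of 22 rose (Hoxb3, Hoxb13, Hoxc5 and Hoxc6) and Hoxa11 fell, against 10.3% of 19521 genes called higher and 1.94% called lower (12.2% in all), and the block called 5 higher and 5 lower, against 18.7% and 11.1% of all genes (29.8% in all). Hoxb3 and Hoxc5, with 2 and 3 counts over the ATRA libraries, again passed the minimum only through PB-4. Hoxc6, of the cluster that holds Mir196a-2, stood at 0.678, 0.665 and 0.191 CPM in control, 0.849, 0.802 and 1.62 CPM with ATRA and 6.54, 7.64 and 3.36 CPM with PB-4. The PB-4 libraries were above all others, and Hoxc6 rose by 3.43 ± 0.58 over control (edgeR adjusted p = 0.00654), which held under 15 of 15 alternatives. The Hox genes named beyond the neighbours of the hairpins were chosen after their values were seen. The count of Hox genes called in PB-4 against control fell to 2 without PB-4 replicate 2 or control replicate 2. The call of Hoxc4 was lost without any 1 library (adjusted p 0.0514 to 0.124). That of Hoxa11 was lost without PB-4 replicate 1 or 2 or control replicate 2 (0.0608 to 0.0868). That of Hoxc5 was lost without PB-4 replicate 2 or control replicate 2 (0.0666 and 0.0600). In PB-4 against ATRA it was 0 without ATRA replicate 1 or PB-4 replicate 2, 1 without ATRA replicate 2 and 3 without PB-4 replicate 1.

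mRNAs known as targets of the 2 families were read from the same fits. Of 8 miR-196 targets, 5 were tested, and Hmga2 and Anxa1 fell with both treatments, where 1.07% of all genes were called with ATRA and 4.61% were called lower with PB-4. Hmga2, a chromatin protein of embryonic and tumour cells, stood at 111, 129 and 95.9 CPM in control, 37.4, 37.5 and 41.6 CPM with ATRA and 37.7, 31.9 and 20.4 CPM with PB-4. Every control library was above all treated libraries, and Hmga2 fell by 1.54 ± 0.19 with ATRA and by 1.92 ± 0.27 with PB-4 (edgeR adjusted p = 0.0168 and 0.00306). Anxa1, which encodes the phospholipid-binding annexin A1, stood at 295, 366 and 292 CPM in control, 93.2, 122 and 101 CPM with ATRA and 138, 139 and 61.5 CPM with PB-4, and fell by 1.60 ± 0.20 and 1.52 ± 0.32 (edgeR adjusted p = 0.0183 and 0.0154). Both ATRA calls were lost when ATRA replicate 1 or 2 or control replicate 1 or 2 was left out (0.0680 to 0.157), and the PB-4 call of Anxa1 without control replicate 2 (0.0626). The difference between PB-4 and ATRA passed for neither gene (edgeR adjusted p = 0.425 and 0.863), while miR-196b-5p was lower with PB-4 than with ATRA. A link between the level of miR-196b-5p and these mRNAs was not tested. Hoxc8 and Hoxd8, also miR-196 targets, had 0 counts throughout, and the median over the tested targets was 0.28, 0.03 and -0.22 in ATRA against control, PB-4 against control and PB-4 against ATRA.

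Of 13 miR-10 targets 12 were tested. Tiam1, an activator of Rac, stood at 51.8, 51.4 and 40.0 CPM in control, 37.6, 35.3 and 48.4 CPM with ATRA and 79.9, 86.2 and 71.9 CPM with PB-4. The PB-4 libraries were above all others, and Tiam1 rose by 0.72 ± 0.21 over control and by 1.00 ± 0.21 over ATRA (edgeR adjusted p = 0.0487 and 0.0154). The first call was lost without any 1 library other than PB-4 replicate 3 (0.0901 to 0.158), and the second without ATRA or PB-4 replicate 1 or 2 (0.0511 to 0.103). Tra2b, a splicing regulator, stood at 180, 195 and 136 CPM in control, 94.2, 109 and 98.5 CPM with ATRA and 89.4, 68.3 and 57.2 CPM with PB-4. It fell by 1.27 ± 0.25 with PB-4 (edgeR adjusted p = 0.0116, 0.0700 without PB-4 replicate 2 and 0.0576 without control replicate 2), while ATRA against control gave -0.77 ± 0.20 (edgeR adjusted p = 0.113, 0.00705 with the replicate block and 0.0317 without control replicate 3). PB-4 against ATRA gave -0.47 ± 0.23 for Tra2b (edgeR adjusted p = 0.217, and 0.0307 with the block). Nf1, which restrains Ras, gave -0.47 ± 0.30 with PB-4 against control (edgeR adjusted p = 0.314, and 0.00251 with the block).

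The miR-10 targets as a list did not lean one way. With ATRA 0 of 12 passed, with PB-4 Tiam1 rose and Tra2b fell, and between PB-4 and ATRA only Tiam1 passed, against 1.07, 16.2 and 12.2% of all genes called. With the replicate block the counts were 0 higher and 2 lower, 6 higher and 5 lower, and 4 higher and 2 lower, where the block called 18.4, 44.4 and 29.8% of all genes. The median change over the tested targets was -0.01, 0.06 and 0.18 in the 3 comparisons. For the miR-196 targets the block added 1 call, Hoxb8, which was higher with PB-4 than in control.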

How the data were processed

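The authors deposited raw whole-number counts, 1 table per mature miRNA and 1 per gene. The submitters' notes name HISAT2 2.0.4 for total RNA, BWA without a version for miRNA, and GRCm38. Counter, annotation, strand setting and mismatch tolerance are not stated. Date-like names replaced those of 27 of 46095 rows in the total RNA table (0.214 to 0.260% of its counts), which were not used.

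Pairs of groups were compared with edgeR 4.0.16 in R 4.3.3 (quasi-likelihood, robust, TMM), keeping rows with 10 or more counts over the 6 libraries; p-values were adjusted by the Benjamini-Hochberg method and called under 0.05. The error of a fold change is its size over the root of F. CPM used TMM factors of the 9 libraries of an assay. Arm and partner ratios are log2 of counts + 0.5 and were compared with two-sided exact permutation tests, adjusted over 15 tests. The alternatives tried were DESeq2 1.42.0; RLE factors; library totals; no low-count filter; filterByExpr; a joint fit of 9 libraries; a replicate block; voom with quality weights (limma 3.58.1); leaving out each library; replicates 1 and 2 alone in total RNA; and, for ratios, 1 count added in place of 0.5. The fits were also tested on simulated data, but the outcome is not reported here and nothing above rests on it.

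Same-numbered libraries deviated together in total RNA (correlations of 0.213 to 0.555, 9 of 9 pairs above 0.1), so the block is given where it changes a call. Of 18 pairs with different numbers 6 were above 0.1 as well, all of them between replicates 1 and 2 (0.161 to 0.296). The correlations therefore do not tell pairing by number from replicate 3 standing apart. In miRNA same-numbered libraries did not deviate together (-0.528 to 0.374, 4 of 9 pairs above 0.1). Replicates differed far beyond sampling noise (chi-square per degree of freedom at least 14.0), so none was a duplicate. The text names the 9 rows, the Hox genes beside the hairpins, target genes called in any comparison, the most abundant other targets (Nf1; a further result under this rule is not reported here) and the 3 nearest profiles of each member above 50 CPM. Members and lists (39 Hox genes, 13 miR-10 targets, 8 miR-196 targets, 6 retinoic acid response genes and cell type markers) were chosen with earlier results of these data known. RefSeq gave sequences, positions and gene spans, and no genome was used. Tables were made in Python 3.11.15 with pandas 2.3.3, numpy 2.4.6 and scipy 1.17.1, and figures with matplotlib 3.10.9.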

Additional observations from a re-analysis of the deposited data

How the results depend on the processing

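The higher miR-10a-3p with PB-4 (against control and against ATRA) and the lower miR-196b-5p with PB-4 against ATRA kept their direction and call under all 14 alternatives each. The count of members called in ATRA against control, 0, was 1 with DESeq2, RLE factors, library totals, filterByExpr or a joint fit of 9 libraries, 2 with no low-count filter, and 0 to 2 when leaving out a library. In PB-4 against control it was 1, 2 with DESeq2 or filterByExpr, and 1 to 2 when leaving out a library. In PB-4 against ATRA it was 5, 3 with the joint fit, 2 with library totals and 2 to 4 when leaving out a library. The miRNA numbers were taken not to pair, and a replicate block gave 2 calls there. Over all miRNAs the calls ranged from 22 to 90, 148 to 267 and 88 to 219 under the alternatives in the 3 comparisons (41, 213 and 183 as reported). With library totals the split was 26 higher and 43 lower in ATRA against control (25 and 16 as reported) and 183 higher and 36 lower in PB-4 against ATRA (118 and 65). Causes were not tested.

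Hox genes called in total RNA were 0 in ATRA against control, 1 with DESeq2, 4 with voom, 5 with replicates 1 and 2 alone and 0 to 1 when leaving out a library. In PB-4 against control they were 6, 13 with voom, 12 with the replicate block, 13 with replicates 1 and 2 alone and 2 to 7 when leaving out a library. In PB-4 against ATRA they were 5, 9 with DESeq2, 13 with voom, 10 with the block and 11 with replicates 1 and 2 alone. Leaving out a library gave 0 to 6. Over all genes the calls ranged from 10 to 6457, 1341 to 9127 and 1194 to 8246 (191, 3144 and 2384 as reported), and library totals gave 2673 higher and 489 lower in PB-4 against control (2247 and 897).

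Only values that had not passed changed direction. In ATRA against control they were miR-10a-5p (-0.028 with library totals, -0.21 to 0.36 when leaving out a library), Hoxa11 (0.0028 with totals, 0.092 with voom, 0.0039 with the block, 0.20 with replicates 1 and 2 alone, -0.31 to 0.12 when leaving out a library), Hoxc4 (-0.49 with voom), and, when leaving out a library, miR-196a-2-3p (-0.43 to 0.13), Nf1 (-0.31 to 0.0044) and the ratio of miR-10a-5p to miR-10b-5p (-0.26 to 0.048). In PB-4 against control they were, when leaving out a library, miR-10b-5p (-0.35 to 0.037), miR-196a-5p (-1.8e-04 to 0.38), Hoxd4 (-0.019 to 0.16) and the arm ratio of miR-10b (-0.048 to 0.10). In PB-4 against ATRA they were Hoxa9 (0.027 with totals, -0.20 to 0.0024 when leaving out a library), miR-10a-5p (-0.13 to 0.41) and Anxa1 (-0.088 to 0.36). Rows of few counts, such as the 3p arms of miR-196a, carry a large counting error.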
